A study of Mus musculus with 8 samples.

Results

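The genes of the proteasome were followed through the arrays of a study of Notch inhibition in early T cell precursors. They were taken as all genes whose platform symbol starts with Psm, a letter from a to g and a digit, each read from its probe set with the highest mean over the 8 arrays. This gave 49 genes of the 18193 that had a probe set naming them alone. Of these, 41 encode constitutive subunits, assembly chaperones or regulators, 4 encode immunoproteasome proteins (Psmb8, Psmb9, Psmb10 and Psme1), and 2 encode catalytic-core subunits known from particular tissues (Psma8 and Psmb11). Psmc3ip, which encodes a partner of a meiotic recombination protein, and Psme3ip1, which encodes a protein that binds the activator PA28γ, matched by symbol alone. Psme2 was read only by a probe set that also names Psme2b and is not among them.

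The proteasome is the chamber in which cells degrade proteins tagged with ubiquitin. Its 20S core is a stack of rings of alpha and beta subunits, and 3 of the beta subunits, encoded by Psmb5, Psmb6 and Psmb7, carry the proteolytic sites. The 19S cap recognises the ubiquitin chain, removes it and unfolds the substrate with a ring of ATPases. Interferons raise an alternative set of catalytic subunits, encoded by Psmb8, Psmb9 and Psmb10, which replace Psmb5, Psmb6 and Psmb7 products in newly made cores and form the immunoproteasome. Lymphoid cells also make this form without interferon, and its products feed peptide loading of MHC class I molecules.

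The samples were DN3 thymocytes, immature cells of the T lineage whose growth relies on Notch, of wild-type (WT) mice and of mice deficient in the transcription factor Ikaros (IkL/L). Bead-depleted thymocytes without lineage markers were kept on OP9 DL1 stromal cells, which present a Notch ligand, and received either the gamma-secretase inhibitor MRK-003 (GSI, labelled as 5 mM) or its vehicle DMSO for 16 h. GSI blocks the protease that releases the active part of Notch. DN3 cells were sorted afterwards by absence of lineage markers and CD44 and presence of CD25, and each of the 4 groups (either genotype with either treatment) had 2 arrays. All 4 groups shared the stromal culture, and neither the age of the mice nor pooling is given. Separate mice or cultures for the replicates are not stated, and the p-values cover only the spread between arrays of a group, which may be technical.

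Deposited values were log2 expression values. Of 11 listed DN3 marker genes 9 were measured, all above the median gene level of 6.28, including Ptcra, Rag1, Cd3e and Bcl11b. Their mean level was 11.555 and 11.643 in WT with DMSO and 11.152 and 11.176 in WT with GSI. In IkL/L it was 11.371 and 11.485 with DMSO and 11.244 and 11.145 with GSI. Every GSI array was thus below every DMSO array. Averaged over genotypes, 2 of the 9 fell with GSI and 0 rose (limma, adjusted p below 0.05). Over all genes tested 12.5% fell and 10.8% rose. In IkL/L alone 2 fell and 2 rose, against 9.09% and 7.7% of all genes. The 2 that fell on average were Il2ra, the gene of the sort marker CD25 (-2.27 ± 0.11), and Ptcra (-1.99 ± 0.11). Both stayed above the median gene level on every array. Ikzf1, which encodes Ikaros, stood at 11.95 and 12.17 in WT with DMSO, 12.18 and 11.95 in WT with GSI, 11.14 and 11.19 in IkL/L with DMSO and 11.76 and 11.52 in IkL/L with GSI, and was lower in IkL/L under DMSO by a log2 difference of -0.90 ± 0.14 (limma, adjusted p = 0.0222). Under GSI the difference was -0.43 ± 0.14 (limma, adjusted p = 0.298). The position of this probe set relative to the mutation was not given, and outside it a probe set checks no label. The 3' minus 5' difference of the GAPDH control probe sets, a measure of RNA integrity and labelling in which larger values go with shorter products, was 1.71 and 2.12 in WT with DMSO, 2.20 and 3.08 in WT with GSI, 1.87 and 2.48 in IkL/L with DMSO and 3.09 and 3.03 in IkL/L with GSI. It moved with the treatment, and average responses are given below also with it as a covariate in the fit (the GAPDH covariate). Since the groups are terms of that fit, the slope of the covariate rests on the gaps between the 2 arrays of each group. Its part in the responses was not tested further.

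Promoter sequence is shown here for 6 genes on which the results below turn: the 3 immunoproteasome catalytic genes, Psmb5 as the constitutive counterpart of Psmb8, Psme3, which had the largest decrease, and Psmg1, the assembly chaperone gene with the largest decrease. The sequences are from RefSeq (GRCm38.p6) and run 5′ to 3′ on the strand of the gene up to its annotated start, over 250 bases, or 225 for Psmb9, where the neighbouring gene Tap1 begins. Capitals mark matches to 4 motifs searched on both strands: the antioxidant response element TGACNNNGC, which NFE2L1 and NFE2L2 bind, the interferon response motif GAAANNGAA, the gamma-interferon activated site (GAS) TTCNNNGAA and the E-box CACGTG. No 2 matches in these genes overlapped.
Psmb8, chr17:34197945-34198194, plus strand: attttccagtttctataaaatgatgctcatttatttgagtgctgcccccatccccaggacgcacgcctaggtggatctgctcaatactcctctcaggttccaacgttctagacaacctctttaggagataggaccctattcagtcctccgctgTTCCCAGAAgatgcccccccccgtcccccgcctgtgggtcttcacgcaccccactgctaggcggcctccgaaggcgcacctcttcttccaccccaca
Psmb9, chr17:34187331-34187555, minus strand: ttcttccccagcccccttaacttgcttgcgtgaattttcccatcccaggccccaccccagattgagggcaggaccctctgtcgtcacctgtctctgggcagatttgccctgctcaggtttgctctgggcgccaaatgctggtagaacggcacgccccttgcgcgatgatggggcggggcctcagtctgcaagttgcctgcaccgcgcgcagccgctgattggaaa
Psmb10, chr8:105938393-105938642, minus strand: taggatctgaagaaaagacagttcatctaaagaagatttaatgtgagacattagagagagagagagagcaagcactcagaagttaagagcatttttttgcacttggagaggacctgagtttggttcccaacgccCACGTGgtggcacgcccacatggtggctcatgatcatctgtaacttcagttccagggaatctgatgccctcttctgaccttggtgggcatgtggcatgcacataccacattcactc
Psmb5, chr14:54617996-54618245, minus strand: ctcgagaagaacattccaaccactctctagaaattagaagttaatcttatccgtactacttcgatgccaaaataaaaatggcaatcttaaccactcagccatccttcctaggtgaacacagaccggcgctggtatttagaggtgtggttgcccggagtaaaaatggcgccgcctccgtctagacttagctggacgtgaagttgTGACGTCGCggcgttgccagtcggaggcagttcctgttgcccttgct
Psme3, chr11:101315963-101316212, plus strand: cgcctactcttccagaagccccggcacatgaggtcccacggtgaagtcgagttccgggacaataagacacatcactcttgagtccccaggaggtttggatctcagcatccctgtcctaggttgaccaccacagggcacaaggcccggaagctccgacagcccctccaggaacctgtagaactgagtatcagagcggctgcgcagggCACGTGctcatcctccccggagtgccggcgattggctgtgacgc
Psmg1, chr16:95990961-95991210, minus strand: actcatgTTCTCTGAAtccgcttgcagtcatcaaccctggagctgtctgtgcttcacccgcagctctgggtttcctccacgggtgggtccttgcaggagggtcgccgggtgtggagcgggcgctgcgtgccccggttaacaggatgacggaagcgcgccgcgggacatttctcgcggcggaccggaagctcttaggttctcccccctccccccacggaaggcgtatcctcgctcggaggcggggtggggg
Psmb5 held an antioxidant response element at -47 from its start, Psmb8 a GAS motif at -97, Psmg1 a GAS motif at -243, and Psme3 and Psmb10 an E-box at -44 and -116. Psmb9 held none of the 4 in the stretch shown.

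Windows from 250 bases before to 50 after the start were found for 41 of the 49 genes. The antioxidant response element occurred in 6 of 34 constitutive windows (Psmb5, Psmb6, Psmc6, Psmd9, Psmd12 and Psme4) and 0 of 4 immunoproteasome windows, and in 12.4% of all 32851 windows. The interferon response motif occurred in 6 of 34 and in 1 of 4 (Psme1, at 10 bases past the start), and in 8.6% of all windows. GAS occurred in 2 of 34 and 1 of 4, against 8.3%, and the E-box in 3 of 34 and 1 of 4, against 7.2%. These are matches of letters and not shown to be sites.

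With GSI, many transcripts of the constitutive proteasome were lower, while none of the immunoproteasome passed the test. Averaged over both genotypes, 27 of the 49 genes fell and 0 rose at an adjusted p below 0.05 (limma over all genes, Benjamini-Hochberg), where 12.5% of all genes tested were called lower and 10.8% higher. Without adjustment 33 of the 49 were below 0.05. Of the 41 constitutive genes 26 fell, 40 had a negative log2 difference and the median difference was -0.57, against -0.00 over all genes. Of the 4 immunoproteasome genes none was called by limma (0 below 0.05 before adjustment), and all 4 differences lay between 0.08 and 0.23. The probe set shared by Psme2 and Psme2b, left out by the rule and not tested, went the other way, with a lower mean under GSI in both genotypes. In WT it was at 12.12 and 11.53 with DMSO and at 11.86 and 11.26 with GSI, and these groups overlapped. In IkL/L it was at 11.96 and 11.45 with DMSO and at 11.30 and 11.15 with GSI, without overlap. Since arrays measure RNA from many cells together, fewer cells of a kind and less RNA per cell cannot be told apart.

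**Figure D1:**
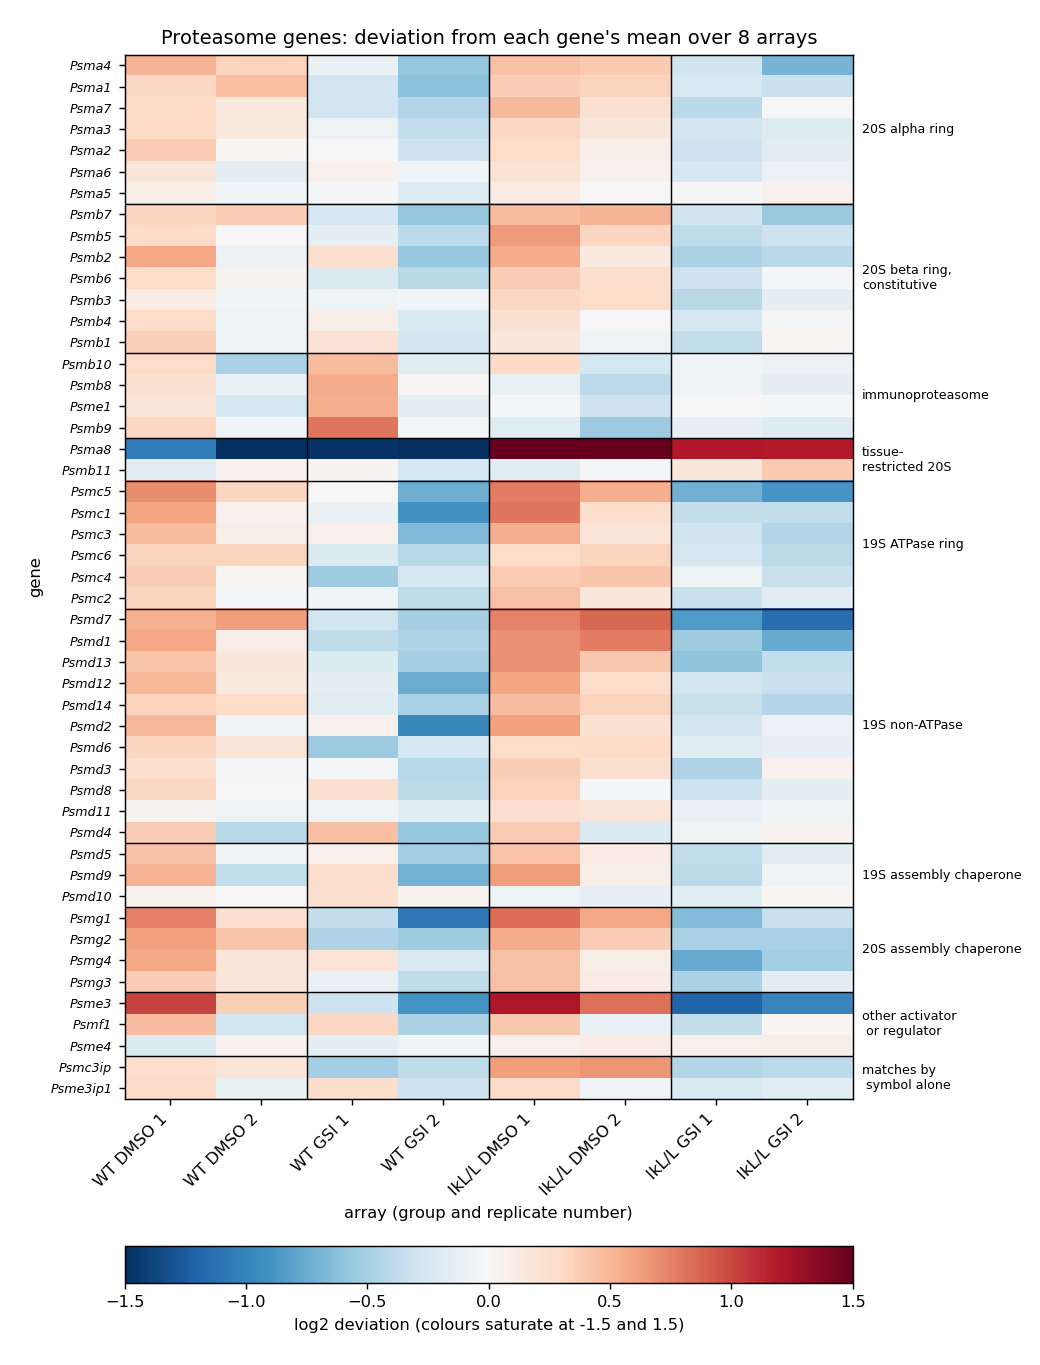
Log2 deviation of each of the 49 genes (rows, by role) from its own mean over the 8 arrays (columns, by group and replicate number), with colours saturating at -1.5 and 1.5. The median deviation of the constitutive genes is above 0 on each of the 4 DMSO arrays and below 0 on each GSI array. It is near 0 on the second WT DMSO array (0.05) and the first WT GSI array (-0.08). The immunoproteasome genes do not follow this, and Psma8 is high on the 4 IkL/L arrays.

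The arrays of a group were not interchangeable for these genes. On the first WT DMSO array 44 of the 49 were higher than on the second (89.8%, against 63.5% of all genes), as were 44 of 49 in WT with GSI (89.8% against 62.2%) and 40 of 49 in IkL/L with DMSO (81.6% against 61.5%), while 18 of 49 were in IkL/L with GSI (36.7% against 40.1%). All 4 immunoproteasome genes were higher on the first array of every group, by a median of 0.42, 0.66, 0.32 and 0.06 in the same order of groups. Even so, for 26 of the 41 constitutive genes both GSI arrays lay below both DMSO arrays of their genotype in WT and again in IkL/L, which held for 0 of the 4 immunoproteasome genes. Across all genes tested this was the case for 15.6%.

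Within the 20S core, 5 of the 7 alpha-ring genes and 4 of the 7 constitutive beta-ring genes fell. The alpha ring gates entry to the chamber. Its log2 differences averaged over genotypes ran from -0.84 to -0.09 with a median of -0.46. Psma4 fell by 0.84 ± 0.14 (SE; limma, adjusted p = 0.00435) and Psma1 by 0.74 ± 0.10 (limma, adjusted p = 0.00168), while Psma5 (-0.09 ± 0.08) and Psma6 (-0.16 ± 0.09) did not pass. The beta-ring median was -0.48. Psmb1 (-0.19 ± 0.16), Psmb2 (-0.60 ± 0.23) and Psmb4 (-0.21 ± 0.12) did not pass, and Psmb3, a non-catalytic subunit, fell by 0.33 ± 0.09 (limma, adjusted p = 0.0356). With the GAPDH covariate, Psma1 alone of the 5 alpha-ring calls and Psmb7 alone of the 4 beta-ring calls were made again, and the medians were -0.21 and -0.26.

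All 3 constitutive catalytic subunit genes were among those that fell. Psmb5, whose product cuts after hydrophobic residues, was at 11.88 and 11.58 in WT with DMSO, 11.44 and 11.19 in WT with GSI, 12.22 and 11.91 in IkL/L with DMSO and 11.20 and 11.27 in IkL/L with GSI. Psmb6, encoding the caspase-like subunit, was at 11.50 and 11.26, 11.01 and 10.81, 11.61 and 11.48, and 10.92 and 11.19 in the same order of groups. Psmb7, encoding the trypsin-like subunit, was at 10.88 and 10.94, 10.32 and 9.99, 11.04 and 11.07, and 10.26 and 10.01. Each of the 3 was lower on both GSI arrays than on both DMSO arrays of its genotype, with no overlap. The average log2 differences were -0.62 ± 0.12 for Psmb5 (limma, adjusted p = 0.00628), -0.48 ± 0.11 for Psmb6 (adjusted p = 0.0158) and -0.84 ± 0.12 for Psmb7 (adjusted p = 0.00176). The calls on Psmb5 and Psmb7 held when each array was left out in turn, and that on Psmb6 was lost without the first WT DMSO array (-0.42), the first IkL/L DMSO array (-0.45) or the first IkL/L GSI array (-0.41). In the fit with the GAPDH covariate the differences were -0.29 for Psmb5 (limma, adjusted p = 0.159), -0.26 for Psmb6 (adjusted p = 0.288) and -0.70 for Psmb7 (adjusted p = 0.0207), so that only Psmb7 was still called.

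In the 19S cap all 6 ATPase genes fell, with a median log2 difference of -0.65 and a range from -1.17 to -0.46. Of these, Psmc4, Psmc5 and Psmc6 were called again with the GAPDH covariate, while Psmc1 (-0.09), Psmc2 (-0.08) and Psmc3 (-0.04) were not. Psmc5, which encodes an ATPase of the ring at the mouth of the core, was at 10.35 and 9.98 in WT with DMSO, 9.65 and 8.92 in WT with GSI, 10.42 and 10.21 in IkL/L with DMSO and 8.94 and 8.78 in IkL/L with GSI. Its GSI arrays were below its DMSO arrays in both genotypes, more widely apart in IkL/L, and on average it fell 2.25-fold (-1.17 ± 0.18; limma, adjusted p = 0.00291). Of the 11 non-ATPase genes 6 fell (median -0.64, range -1.39 to -0.06), and 4 of the 6 were called again with the GAPDH covariate, namely Psmd1, Psmd6, Psmd7 and Psmd14. Psmd14, which encodes the deubiquitinase that strips the chain from the substrate, fell by 0.71 ± 0.09 on the log2 scale (limma, adjusted p = 0.00123). The ubiquitin receptor gene Psmd4 was at -0.06 ± 0.26, and at -0.31 on another of its probe sets. Psmd2, encoding a large scaffold subunit, was at -0.64 ± 0.23 but did not pass (limma, adjusted p = 0.0907).

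Psmd7 and Psmd1 were the non-ATPase genes with the largest decreases. Psmd7, whose product is the inactive partner of the Psmd14 deubiquitinase, was at 9.56 and 9.65 in WT with DMSO, 8.73 and 8.52 in WT with GSI, 9.77 and 9.89 in IkL/L with DMSO and 8.17 and 7.88 in IkL/L with GSI. The replicates were close in each group and the treatments did not overlap, and Psmd7 fell 2.62-fold on average (-1.39 ± 0.13; limma, adjusted p = 0.000402). Psmd1, encoding the other large scaffold subunit of the cap, was at 10.75 and 10.26, 9.78 and 9.71, 10.85 and 10.94, and 9.64 and 9.42 in the same order of groups. It was lower with GSI in both genotypes without overlap (-1.06 ± 0.14; limma, adjusted p = 0.00124).

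Assembly chaperone genes were counted by the particle their products build. All 4 genes for chaperones of the 20S core fell (median -0.81, range -1.21 to -0.56), while none of the 3 genes for chaperones of the 19S base passed in limma, with 1 of the 3 below 0.05 before adjustment. With the GAPDH covariate Psmg2 alone of the 4 was called again (-0.81), and Psmg1 (-0.58; limma, adjusted p = 0.0535), Psmg3 (-0.23) and Psmg4 (-0.17) were not. The difference between these chaperone groups was not tested. Psmg1 and Psmg2 encode the partners that hold the nascent alpha ring. Psmg1 was at 10.94 and 10.43 in WT with DMSO, 9.83 and 9.12 in WT with GSI, 11.04 and 10.77 in IkL/L with DMSO and 9.55 and 9.86 in IkL/L with GSI. Psmg2 was at 10.78 and 10.58, 9.71 and 9.63, 10.72 and 10.53, and 9.68 and 9.67 in the same order. Neither gene overlapped between treatments, and the replicates of Psmg2 differed by at most 0.20 in any group. Psmg1 fell 2.31-fold (-1.21 ± 0.20; limma, adjusted p = 0.00333) and Psmg2 1.97-fold (-0.98 ± 0.11; adjusted p = 0.000727). Psmg3 (-0.56 ± 0.15) and Psmg4 (-0.65 ± 0.17), which form the other alpha-ring chaperone, also fell. Of the 19S chaperone genes, Psmd5 was at -0.48 ± 0.19, Psmd9 at -0.44 ± 0.28 and Psmd10, also known as gankyrin, at 0.07 ± 0.13, the only constitutive gene above 0.

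Among the genes for activators that can take the place of the 19S cap, Psme3 fell and Psme4 did not pass. Psme3 encodes PA28γ, a nuclear activator that opens the core to unfolded and ubiquitin-free substrates. It was at 9.83 and 9.18 in WT with DMSO, 8.51 and 7.92 in WT with GSI, 10.04 and 9.65 in IkL/L with DMSO and 7.62 and 7.83 in IkL/L with GSI, so that every GSI array was below every DMSO array of either genotype. Among the 49 genes it had the largest average decrease, 3.26-fold (-1.71 ± 0.21; limma, adjusted p = 0.000924). Psme4, encoding the nuclear activator PA200, was at -0.02 ± 0.11, and at -0.27 and -0.22 on its other probe sets above the median gene level. Psmf1, encoding the inhibitor PI31, was at -0.25 ± 0.25, and at 0.12 and -0.08 on such probe sets. Psmc3ip, which is no proteasome subunit, fell by 0.87 ± 0.11 (limma, adjusted p = 0.0013), and Psme3ip1 was at -0.22 ± 0.17.

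Leaving out a single array, which left a lone array in a group, changed the calls among these genes and among all genes tested. Counts of the gene lists below without single arrays stand against that moving background. Some of the 27 calls were lost in this way. Among those that held without each array in turn were Psme3, Psmd7, Psmg1, Psmg2 and Psmc5. When the GAPDH difference entered as a covariate, 12 of the 27 were called lower again, the constitutive median moved from -0.57 to -0.21, and 5 genes were called higher. Those 5 were the 4 immunoproteasome genes and Psmd4. Of all genes tested that fit called 3683 in either direction, with a median difference of 0.07, against -0.00 without the covariate. The covariate counts of the gene lists below stand against the same background. Over the fits without a single array the constitutive median ran from -0.64 to -0.47. Another 26 probe sets of these genes had a mean above the median gene level, and 22 had the same sign of change as the probe set used. Sizes differed both ways: Psma6 was at -0.43 on such a probe set, a larger decrease, and Psmd7 at -0.26, a smaller one.

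The immunoproteasome genes were at high levels under both treatments. Psmb8, encoding the subunit that replaces the Psmb5 product, was at 12.41 and 12.07 in WT with DMSO, 12.73 and 12.20 in WT with GSI, 12.06 and 11.78 in IkL/L with DMSO and 12.12 and 12.03 in IkL/L with GSI. Psmb9, whose product replaces that of Psmb6, was at 11.03 and 10.67, 11.52 and 10.69, 10.53 and 10.17, and 10.60 and 10.52. Psmb10, whose product replaces that of Psmb7, was at 11.03 and 10.27, 11.23 and 10.58, 11.05 and 10.49, and 10.70 and 10.66. For these 3 genes the treatments overlapped in both genotypes. Psme1 encodes PA28α, a subunit of the interferon-inducible activator, and was at 11.42 and 10.95, 11.77 and 11.09, 11.19 and 10.91, and 11.23 and 11.20. Its treatments overlapped in WT but not in IkL/L, where both GSI arrays were the higher ones by a small margin.

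Averaged over genotypes the log2 differences were 0.19 ± 0.14 for Psmb8 (limma, adjusted p = 0.42), 0.23 ± 0.19 for Psmb9 (adjusted p = 0.488), 0.08 ± 0.22 for Psmb10 (adjusted p = 0.848) and 0.20 ± 0.17 for Psme1 (adjusted p = 0.497). None passed, and the errors leave room for small changes either way. The sign of Psmb10 depended on the arrays used: over the alternatives tried it ranged from -0.11 to 0.83, while Psmb8 ranged from 0.05 to 0.66, Psmb9 from 0.02 to 0.90 and Psme1 from 0.03 to 0.79. With the GAPDH covariate all 4 were called higher, Psmb8 by 0.66 ± 0.12 (limma, adjusted p = 0.0045), Psmb9 by 0.90 ± 0.15, Psmb10 by 0.83 ± 0.18 and Psme1 by 0.79 ± 0.14. These calls depend on a slope taken from the gaps between replicates, in which all 4 genes were higher on the first array of every group.

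Each immunoproteasome subunit was then set against the constitutive subunit it replaces, as the difference of log2 values within an array. The size of this difference has no meaning across probe sets, but its change between arrays does. Psmb8 minus Psmb5 was 0.53 and 0.49 in WT with DMSO, 1.30 and 1.01 in WT with GSI, -0.16 and -0.13 in IkL/L with DMSO and 0.92 and 0.76 in IkL/L with GSI. Psmb9 minus Psmb6 was -0.47 and -0.59, 0.51 and -0.13, -1.08 and -1.31, and -0.32 and -0.67. Psmb10 minus Psmb7 was 0.14 and -0.68, 0.91 and 0.60, 0.01 and -0.59, and 0.44 and 0.66. In all 3 pairs and in both genotypes, both GSI arrays were above both DMSO arrays. The constitutive partners alone were already lower with GSI without overlap, with average differences of -0.62, -0.48 and -0.84. Those of the immunoproteasome genes were 0.19, 0.23 and 0.08. Without the GAPDH covariate the shifts of the pairs thus mostly restate the fall of the partners, and other gene pairs were not examined. The average shifts were 0.81, 0.71 and 0.93 on the log2 scale, and 0.96, 1.16 and 1.53 with the GAPDH covariate. An exact two-sided permutation of treatments within genotypes gave p = 0.0556 for each pair, which is the smallest value that its 36 arrangements allow and stays 0.0556 after adjustment over the 3 pairs, so the design could not reach 0.05. The Psmb8 pair moved by 0.64 in WT and 0.98 in IkL/L, the Psmb9 pair by 0.72 and 0.70, and the Psmb10 pair by 1.02 and 0.83.

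**Figure D2:**
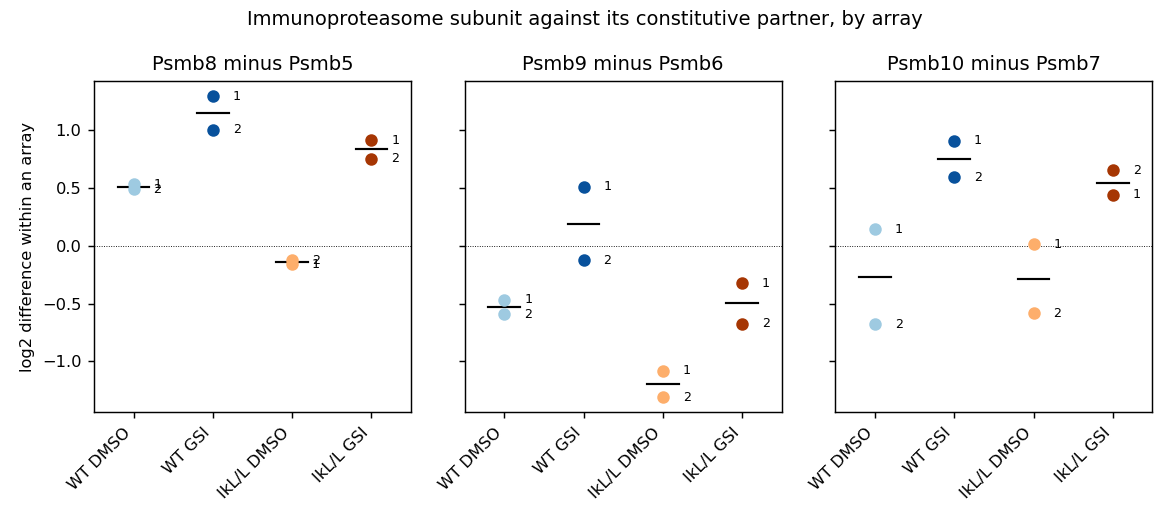
Log2 difference within each array between an immunoproteasome subunit gene and the constitutive gene whose product it replaces (points, arrays of a group; horizontal bars, group means; dotted line, 0). Both GSI arrays of each genotype are above both of its DMSO arrays in all 3 panels, with average shifts of 0.81, 0.71 and 0.93.

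Averaged over the gene sets, the immunoproteasome minus the constitutive mean deviation was -0.13 and -0.31 in WT with DMSO, 0.67 and 0.38 in WT with GSI, -0.46 and -0.63 in IkL/L with DMSO and 0.32 and 0.16 in IkL/L with GSI. The sets thus moved apart on every GSI array, although the constitutive mean deviation itself differed between the replicates of WT GSI (-0.07 and -0.46) by more than between the second WT DMSO array (0.09) and the first WT GSI array. These set means are descriptions of 41 and 4 genes, with no test.

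In WT alone, 10 of the 49 genes fell with GSI and none rose in limma, where 4.16% of all genes tested were called lower and 2.31% higher. Before adjustment 22 were below 0.05. The 10 included Psme3 (-1.29 ± 0.29; limma, adjusted p = 0.0397), Psmg1 (-1.21 ± 0.28; adjusted p = 0.0417), Psmg2 (-1.01 ± 0.16; adjusted p = 0.0144) and Psmd7 (-0.98 ± 0.19; adjusted p = 0.0237). The constitutive median was -0.47, against 0.04 over all genes, and 9 of the 41 constitutive genes were called. None of the 10 calls held without each array in turn. Without either WT DMSO array, which left a lone array in that group, far fewer of all genes tested were called as well. The constitutive median was -0.38 without the first WT DMSO array and -0.66 without the second. It was -0.66 without the first WT GSI array and -0.29 without the second. The immunoproteasome genes had differences between 0.23 and 0.26, none of them past the test. Their median turned to -0.08 without the first WT GSI array.

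In IkL/L 18 of the 49 fell and none rose in limma, where 9.09% of all genes tested were called lower and 7.7% higher. Before adjustment 32 were below 0.05. Psme3 had a difference of -2.12 ± 0.29 (limma, adjusted p = 0.00274), Psmd7 of -1.80 ± 0.19 (adjusted p = 0.0011), Psmc5 of -1.46 ± 0.26 (adjusted p = 0.00746) and Psmd1 of -1.37 ± 0.20 (adjusted p = 0.00311). Of the constitutive genes 17 of 41 fell, with a median of -0.60 against -0.05 over all genes. The 4 calls on Psmd1, Psmd7, Psme3 and Psmc3ip held without each array in turn. Without a single IkL/L array, which left a lone array in a group, fewer of the 18 and fewer of all genes tested were called. The constitutive median was -0.45 without the first IkL/L DMSO array and -0.69 without the second. It was -0.475 without the first IkL/L GSI array and -0.70 without the second. Immunoproteasome differences lay between -0.09 and 0.20.

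Both genotypes shared 9 calls, namely Psma1, Psmb7, Psmc6, Psmd7, Psmd14, Psme3, Psmg1, Psmg2 and Psmc3ip. These were 90.0% of the 10 calls in WT and 50.0% of the 18 in IkL/L. The test of the difference between the responses called 0 of the 49 genes in limma, where 0.044% of all genes tested were called in either direction, and 2 of the 49 were below 0.05 before adjustment. Those 2 were Psmd7, with a further decrease of -0.82 ± 0.26 in IkL/L (limma, adjusted p = 0.685), and Psmb3, with -0.47 ± 0.19 (adjusted p = 0.812). The larger number of calls in IkL/L is therefore not shown to be a larger response. Over the 41 constitutive genes the median difference between the responses was -0.12, against -0.06 over all genes.

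**Figure D3:**
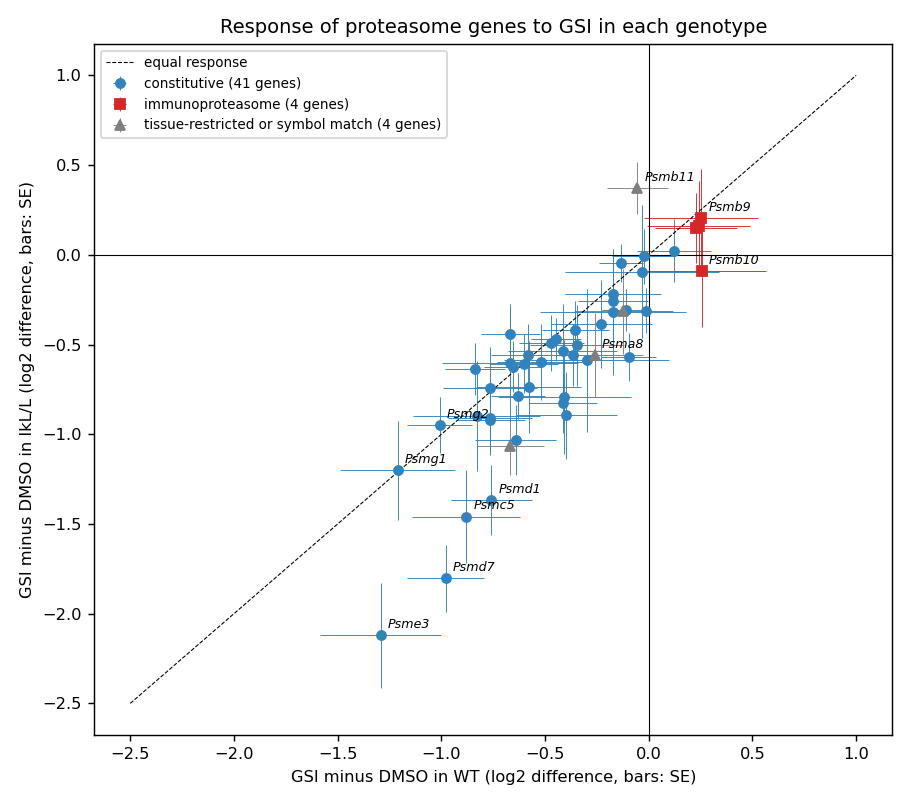
Log2 difference between GSI and DMSO in WT (horizontal axis) and in IkL/L (vertical axis) for the 49 genes, with standard errors as bars, a dashed line for equal responses and a different marker for each class. Constitutive genes spread from near 0 to -1.29 in WT and -2.12 in IkL/L, the position of Psme3, and the 4 immunoproteasome genes lie around 0.

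Psma8 was the member that differed by genotype. It encodes an alpha subunit known from the testis, where it takes the place of the Psma7 product in the core of spermatogenic cells. It was at 5.73 and 5.14 in WT with DMSO and 5.31 and 5.03 in WT with GSI, all below the median gene level of 6.28, and at 8.68 and 8.39 in IkL/L with DMSO and 7.98 and 7.96 in IkL/L with GSI, all above it. The genotypes were far apart and the replicates close. Psma8 was higher in IkL/L by a log2 difference of 3.10 ± 0.23 under DMSO (limma, adjusted p = 0.000949) and of 2.80 ± 0.23 under GSI (adjusted p = 0.00115). The values used here carry no detection call, so the WT level may be background and these differences are not exact folds. Both calls held under each of 18 alternatives, with differences from 2.80 to 3.40 and from 2.66 to 3.01. Not all of these could have changed them. Psma8 had only 1 probe set, so the other probe set rules reused its values. Its mean passed the level filter only through the IkL/L arrays. GSI itself changed Psma8 by -0.41 ± 0.17 on average (limma, adjusted p = 0.122).

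Its paralog Psma7 did not pass between the genotypes. Psma7 was at 11.36 and 11.21 in WT with DMSO, 10.78 and 10.62 in WT with GSI, 11.55 and 11.29 in IkL/L with DMSO and 10.66 and 11.06 in IkL/L with GSI. The genotype difference was 0.13 ± 0.18 under DMSO (limma, adjusted p = 0.917) and 0.16 ± 0.18 under GSI (adjusted p = 0.831), while GSI lowered Psma7 by -0.57 ± 0.12 on average (adjusted p = 0.0119). Psmb11 encodes the thymoproteasome subunit of cortical thymic epithelium. Its values were 3.70 and 3.92, 3.90 and 3.60, 3.68 and 3.85, and 4.02 and 4.25 in the same order of groups, all below the median gene level. Of 8 thymic epithelial marker genes 2 were above the median gene level, and the defining factor Foxn1 was between 4.06 and 4.34. With GSI 3 of the 8 rose on average in limma (Epcam, Krt8 and Prss16) and 4 in IkL/L, and the part of such cells in the Psmb11 values was not tested.

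**Figure D4:**
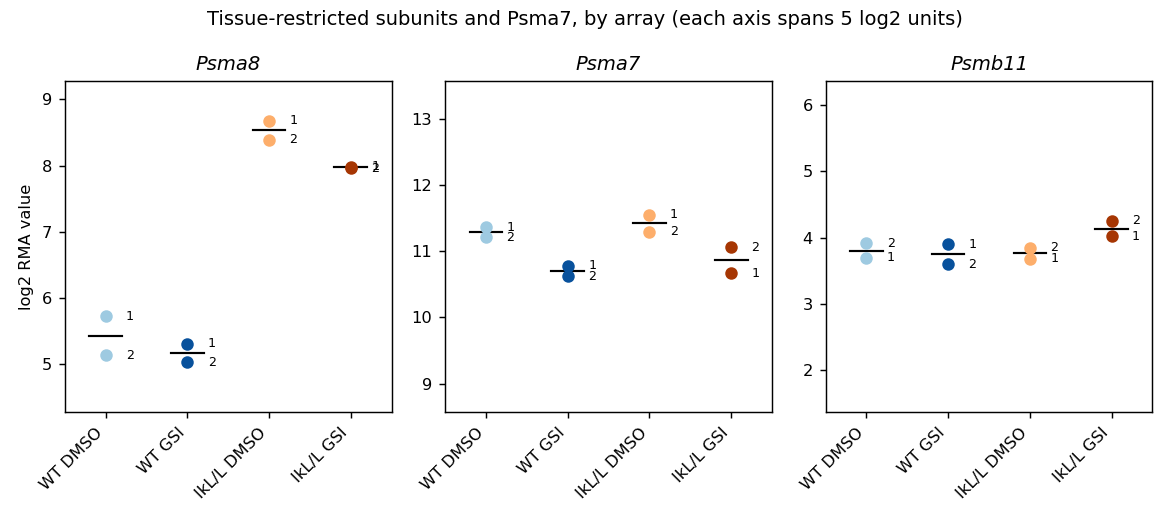
Log2 values of Psma8, Psma7 and Psmb11 on each array (points; horizontal bars, group means), on axes that each span 5 log2 units. Psma8 lies between 5.03 and 5.73 on the WT arrays and between 7.96 and 8.68 on the IkL/L arrays, while the genotypes overlap for Psma7.

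No other member passed between the genotypes. Under DMSO 1 of the 49 genes was called higher and none lower in limma, where 0.709% of all genes tested were called higher and 1.03% lower. Under GSI the counts were again 1 and 0, where 0.945% of all genes tested were called higher and 0.517% lower. Before adjustment 2 and 4 of the 49 were below 0.05. The constitutive medians of IkL/L minus WT were 0.12 under DMSO and -0.04 under GSI, close to 0.03 and -0.04 over all genes. For Psmb8 and Psmb9 the differences were -0.32 ± 0.20 and -0.50 ± 0.27 under DMSO (limma, adjusted p = 0.721 and 0.657). Under GSI they were -0.39 ± 0.20 and -0.55 ± 0.27 (limma, adjusted p = 0.545 for both), and neither gene passed.

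Other parts of the degradation machinery were read from lists of genes. Of 8 measured factors that build or serve the proteasome without a Psm symbol, 3 fell, and these 3 fell without any single array. Pomp, the maturation factor that brings the parts of the core together, was at 11.08 and 10.95 in WT with DMSO, 10.64 and 10.20 in WT with GSI, 11.17 and 10.95 in IkL/L with DMSO and 10.27 and 10.26 in IkL/L with GSI. GSI lowered it in both genotypes without overlap (-0.69 ± 0.13; limma, adjusted p = 0.00574). The cap's deubiquitinase gene Uchl5 fell by 1.09 ± 0.13 and the cap-associated thioredoxin gene Txnl1 by 0.57 ± 0.10 on the log2 scale. Zfand5, encoding a proteasome-binding zinc finger protein, rose by 0.37 ± 0.11 (limma, adjusted p = 0.0445), and the median of the 8 was -0.23. Of 9 measured genes that carry substrates to the proteasome 5 fell (median -0.52), led by the shuttle gene Rad23b (-1.05 ± 0.13; adjusted p = 0.00109), and this count ran from 1, without either IkL/L DMSO array or the first IkL/L GSI array, to 8, without the first WT GSI array. It was 2 without the first WT DMSO or the second IkL/L GSI array and 3 without the second WT DMSO or second WT GSI array. Under the GAPDH covariate 2 of the 8 factors and 2 of the 9 delivery genes were called lower and none higher.

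The transcription factor NFE2L1 raises proteasome genes when proteasome activity falls short. Nfe2l1 itself was at 7.61 and 7.68 in WT with DMSO, 8.08 and 7.72 in WT with GSI, 7.72 and 7.79 in IkL/L with DMSO and 7.77 and 7.92 in IkL/L with GSI. Its average difference of 0.18 ± 0.14 did not pass (limma, adjusted p = 0.439), and neither did that of its relative Nfe2l2 (-0.10 ± 0.19). Of the 7 measured genes of its pathway 3 rose, the partner gene Mafk (0.66 ± 0.19), the adaptor gene Keap1 (0.48 ± 0.12) and the glycanase gene Ngly1 (0.37 ± 0.11). None of these 3 calls was left without the second WT DMSO array, either IkL/L DMSO array or either IkL/L GSI array, and 1 was left without the first WT DMSO or the first WT GSI array. Under the GAPDH covariate 2 of the 7 were called higher. Of the ubiquitin and E1 list only Uba6, which encodes an E1 enzyme, was measured (-0.51; limma, adjusted p = 0.121).

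Genes of MHC class I presentation, which take up immunoproteasome products, were mostly higher with GSI. Of 11 measured genes 7 rose and 1, the chaperone gene Pdia3, fell (-0.86 ± 0.26; limma, adjusted p = 0.048). The peptide transporter gene Tap1 was at 9.60 and 9.38 in WT with DMSO, 10.85 and 10.30 in WT with GSI, 9.19 and 8.80 in IkL/L with DMSO and 10.35 and 10.40 in IkL/L with GSI. Its treatments did not overlap, and it rose by 1.23 ± 0.16 on average (limma, adjusted p = 0.00129). The annotated starts of Tap1 and Psmb9 face each other, with 225 bases between the genes, yet Psmb9 was at 0.23 ± 0.19, and the difference between the responses of these neighbours was not tested. Also higher were Nlrc5, encoding a transactivator of class I genes (1.83 ± 0.41), Tapbp (1.15 ± 0.18), Tap2 (1.03 ± 0.27), the class I heavy chain gene H2-K1 (0.97 ± 0.18), Irf1 (0.78 ± 0.18) and B2m (0.46 ± 0.11). The count of 7 was 4 without the second WT DMSO or the second IkL/L DMSO array and 3 without the first IkL/L GSI array, and with the GAPDH covariate 8 of the 11 were called higher and none lower.

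**Figure D5:**
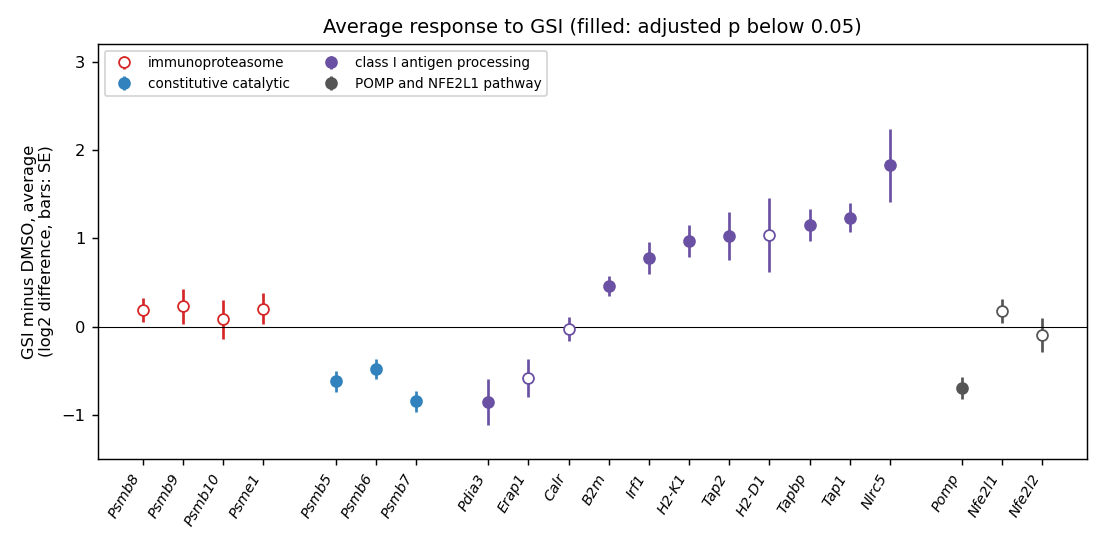
Average log2 difference between GSI and DMSO (points, with standard errors) for the immunoproteasome genes, the constitutive catalytic genes genes of class I presentation, Pomp, Nfe2l1 and Nfe2l2, filled where the adjusted p was below 0.05. Tap1 at 1.23 and Tapbp at 1.15 are filled above 0, Psmb8, Psmb9, Psmb10 and Psme1 are open near 0, and Psmb5, Psmb6 and Psmb7 are filled below 0.

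Levels of interferon-stimulated genes differed between arrays in the direction of the immunoproteasome genes within groups. The mean log2 level of 20 such genes was 9.09 and 7.39 in WT with DMSO, 10.27 and 8.73 in WT with GSI, 8.16 and 7.16 in IkL/L with DMSO and 9.37 and 8.51 in IkL/L with GSI. It was higher on the first array of every group, as the 4 immunoproteasome genes were. The mean levels of the class I list and of the stromal markers below had the same order in every group. This order is therefore not particular to the interferon-stimulated genes. For the mean of the 20 genes the treatments overlapped in WT, and in IkL/L both GSI arrays were above both DMSO arrays. With GSI 5 of the 20 rose in limma (12 below 0.05 before adjustment; median 1.23). That count ran from 0 without the first IkL/L GSI array to 14 without the second WT GSI array. Without single other arrays it was 10 (first WT DMSO), 2 (second WT DMSO), 3 (first WT GSI or second IkL/L GSI) and 1 (second IkL/L DMSO). Of 13 interferon-gamma-induced genes 5 rose (median 0.89), among them Iigp1 (2.44 ± 0.65), Gbp2 (1.90 ± 0.28) and Gbp6 (1.81 ± 0.14), and the count was 3 without the second WT DMSO, first WT GSI, second IkL/L DMSO or first IkL/L GSI array. Under the GAPDH covariate 18 of the 20 and 8 of the 13 were called higher. What these levels contribute to the immunoproteasome values was not tested.

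Markers of other cells were read on the same arrays. Of 14 myeloid and dendritic marker genes, 6 were above the median gene level, and their mean level was 5.46 and 5.15 in WT with DMSO, 5.90 and 5.65 in WT with GSI, 5.60 and 5.65 in IkL/L with DMSO and 7.01 and 6.92 in IkL/L with GSI. With GSI 9 of the 14 rose on average in limma, 2 in WT and 8 in IkL/L, and 8 were higher in IkL/L than in WT under GSI. H2-Aa was at 6.50 and 6.33 in IkL/L with DMSO and at 10.19 and 10.04 in IkL/L with GSI, and Lyz1 was at 7.22 and 7.46 against 10.22 and 10.64. Itgam stayed between 2.78 and 3.27 and Csf1r between 5.45 and 5.86 on all arrays. Of 13 stromal marker genes, 7 were above the median, with mean levels of 6.97 and 6.38, 7.62 and 6.07, 7.47 and 6.66, and 7.46 and 7.06 in the same order of groups. The replicates of each group differed by more than the treatment means did. Of 6 B cell marker genes 1 was above the median. The part of these cells in the proteasome values was not tested.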

How the data were processed

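RNA from the sorted cells went through a 2-cycle labelling protocol and was hybridised to Affymetrix arrays, per the labels' protocols. The deposited values are log2 values that the authors made with RMA, per the submitters' processing notes; the version is not given in the sources used here, and neither is whether other arrays were summarised with these. They were used as deposited.

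Groups came from the sample titles. From the 45101 probe sets, 932 that name several genes, 9160 with no listed gene and 64 controls were dropped, and for 9010 genes with several probe sets the one with the highest mean was kept, giving 18193 genes with no filter on low values. The 49 proteasome genes had 103 probe sets naming 1 gene, and 27 genes had more than 1. Replicates correlated with r from 0.975 to 0.993, and 2 arrays a group limit the precision.

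Tests used R 4.3.3 and limma 3.58.1 (eBayes with a trend; 4 residual and 4.11 prior degrees of freedom) on all 8 arrays, adjusted over all genes, and called at an adjusted p below 0.05. Errors of differences are standard errors. The fit was checked on simulated data with independent noise for each gene and array. That check does not cover deviations that many genes share on an array, as seen here between replicates. Tables and plots used Python 3.11.15 with pandas 2.3.3, numpy 2.4.6 and matplotlib 3.10.9.

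The members and gene lists were chosen with earlier results of these data known. Values on each array were to be given for the immunoproteasome genes, Psmb5, Psmb6, Psmb7, Psma8, Psmb11 and, per contrast, up to 4 called members of largest increase and 4 of largest decrease, or, with none called, the 2 of lowest p; of the other lists, up to 3 called genes by size, with Pomp, Nfe2l1, Nfe2l2, Tap1, B2m, Irf1 and Nlrc5 always. Psma7, Ikzf1, Il2ra, H2-Aa, Lyz1, Itgam, Csf1r, Foxn1 and the other genes given by a difference alone were named after their values were seen. Adrm1 and Psme2 were not analysed here. Alternatives were a replicate block, other probe set rules, a level filter, other scalings, no trend, only the arrays compared, the GAPDH 3' minus 5' difference as a covariate, and leaving out arrays.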

Additional observations from a re-analysis of the deposited data

How the results depend on the processing

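For the genes given by name, 1116 of the values under alternatives stayed on the same side of the threshold, of which 1056 kept their sign and 60, not called in either fit, changed it. Another 17 newly passed, 60 no longer passed, and 1 changed sign and was called: Psmb10 in IkL/L was 0.74 with the GAPDH difference as a covariate. That covariate gave 12 members lower and 5 higher on average (27 and 0 without it), 5 and 5 in WT (10 and 0), 8 and 5 in IkL/L (18 and 0) and 2 higher by genotype under GSI (1), with 4 immunoproteasome genes higher in each GSI contrast (0). Of all genes it called 3683, 2276, 3197 and 794 in either direction, in the same order of contrasts. Why the covariate changed the counts was not tested. The 10 WT calls became 17 with the replicate block and 17 with centring on array medians, where 1973 and 1464 of all genes were called. They became 6 with a mean over probe sets (842 of all genes) or with every probe set as a feature (1247 of all probe sets). With only the arrays compared they became 0, where 1 of all genes was called, and the constitutive median stayed at -0.47. That median was also -0.47 without both WT arrays numbered 1. Leaving out single arrays gave 17 to 30 members lower on average, 0 to 15 in WT and 4 to 23 in IkL/L; a lone array was assumed to vary like the others. With the replicate number as a block, all 27, 10 and 18 calls were kept among 29, 17 and 23. Same-numbered arrays deviated together among WT DMSO, WT GSI and IkL/L DMSO (r from 0.562 to 0.71) but not between IkL/L GSI and these 3 groups (r from -0.113 to 0.025), so the numbers are not shown to pair the samples.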

Other observations

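The probe set that names both Psme2b and Psme2, left out above, was at 12.12 and 11.53 in WT with DMSO, 11.86 and 11.26 in WT with GSI, 11.96 and 11.45 in IkL/L with DMSO and 11.30 and 11.15 in IkL/L with GSI. Psme2 encodes PA28β, the partner of the Psme1 product. Both IkL/L GSI arrays were below both IkL/L DMSO arrays. The WT groups overlapped, with a lower mean under GSI.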
